A study of Mus musculus with 3 samples.

Results

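The ribosomal protein genes, taken by symbol (Rpl or Rps followed by a number, Rplp0 to Rplp2 and Rpsa, without the Rps6k kinases, Rps19bp1, Rps27rt and pseudogenes), numbered 87 of the 21883 protein-coding genes on chromosomes 1 to 19, X and Y of GRCm38. They comprised 46 genes of the large ribosomal subunit, 31 genes of the small subunit and 10 further copies (Rpl3l, Rpl7l1, Rpl10l, Rpl22l1, Rpl32l, Rpl36al, Rpl37rt, Rpl39l, Rps23rg1 and Rps27l). H3K27ac, the acetylation of lysine 27 of histone H3 that marks active promoters and enhancers, was profiled by ChIP-seq in MIN6, an insulinoma line of the mouse that serves as a model of the pancreatic beta cell. The comparison was of 3 genotypes with 1 library each: wild type, heterozygous Arid1a knockout and homozygous Arid1a knockout. Arid1a encodes a DNA-binding part of SWI/SNF, a complex that moves nucleosomes. Per the labels' protocol, the cells carried Cas9 from a lentivirus under blasticidin selection and then an Arid1a guide RNA from a second lentivirus under puromycin selection, and single-cell clones were sorted into the 3 genotypes by PCR and Western blot. As that protocol reads, the wild type was also such a clone and had met the same Cas9, guide and drugs, but its peaks are named with a tag, GAL4, that neither the labels nor the file explain. Each genotype was thus 1 clone and 1 library, and no comparison below has a replicate, a test or a p-value.

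A ribosome is built from a large and a small subunit, each a core of ribosomal RNA with a shell of proteins that are encoded by single-copy genes scattered over the genome. Their amounts must match, so these genes are transcribed strongly in nearly all cells, and beta cells, which make and secrete large amounts of insulin, depend on a large ribosome pool. Ribosomal protein mRNAs typically begin with a run of pyrimidines at the 5′ end, through which mTOR signalling controls their translation, and many of the introns host small nucleolar RNAs (snoRNAs) that guide the modification of ribosomal RNA. An active promoter usually carries acetylated nucleosomes on both sides of a nucleosome-poor stretch at the start site.

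Promoter sequences were read for 5 genes on which the comparisons below turn, chosen because their peaks covered at least 1.5-fold fewer bases in a knockout library than in wild type and because RefSeq gives them a single start site. Each run holds 100 bases before the start site and 15 from it, 5′ to 3′ on the strand of the gene, from RefSeq on GRCm38.p6: chr7:4792865-4792979 for Rpl28, chr11:114668480-114668594 for Rpl38 and chrX:134585554-134585668 for Rpl36a on the plus strand, and chr2:39005117-39005231 for Rpl35 and chr7:45128731-45128845 for Rpl13a on the minus strand. Capitals mark letters that match a searched motif, which is CTCTTTCC in Rpl28, the GC box GGGCGG or its complement in Rpl35, Rpl38 and Rpl13a, the ETS core CCGGAAG in Rpl38 and the TATA box TATAAA in Rpl36a.
Rpl28: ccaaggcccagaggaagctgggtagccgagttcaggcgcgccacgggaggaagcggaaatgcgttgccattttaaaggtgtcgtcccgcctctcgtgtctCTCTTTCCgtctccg
Rpl35: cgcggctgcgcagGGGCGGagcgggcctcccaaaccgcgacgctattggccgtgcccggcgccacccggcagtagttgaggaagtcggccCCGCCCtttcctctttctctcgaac
Rpl38: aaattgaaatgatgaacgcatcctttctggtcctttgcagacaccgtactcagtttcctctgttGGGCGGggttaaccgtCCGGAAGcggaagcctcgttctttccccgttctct
Rpl13a: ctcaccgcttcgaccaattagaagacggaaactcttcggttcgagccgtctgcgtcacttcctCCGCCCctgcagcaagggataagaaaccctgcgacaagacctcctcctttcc
Rpl36a: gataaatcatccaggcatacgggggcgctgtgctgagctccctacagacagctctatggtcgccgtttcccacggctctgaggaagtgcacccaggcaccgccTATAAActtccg
In Rpl28 the tract CTCTTTCC began at base 1 of the transcript. The same letters began at base 2 in Rpl18 and at base 1 of a start site of Rpl35a.

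RefSeq promoters, from 250 bases before to 50 after a start site, were given for 67 of the 87 genes, and their motifs were set beside those of all 17491 genes with such an entry. The pyrimidine tract CTCTTTCC, searched on the gene strand, was in 8 of 67 (11.9%) against 1.82% of all genes, the 8 being Rpl6, Rpl11, Rpl18, Rpl19, Rpl26, Rpl28, Rpl35a and Rpl36a. These letters need not lie at the 5′ end of the mRNA. At Rpl11 they began at position -65, before the start site, and at Rpl6, Rpl19, Rpl26 and Rpl36a at bases 34, 33, 24 and 33 from a start site. The ETS core CCGGAAG, the binding motif of ETS factors such as GABPA, was in 26 of 67 (38.8%) against 12.9%. The motif AAGATGGC of YY1 was in 6 of 67 (8.96%) against 3.57%, and the GC box GGGCGG in 40 of 67 (59.7%) against 49.2%. The TATA box TATAAA was in 8 (11.9% against 14.8%) and the E-box CACGTG in 6 (8.96% against 8.91%). These were searched on both strands, no motif contains another, and a match describes letters only. The genes were also short, with a median length of 3183 bp against 17170 bp for all protein-coding genes. A snoRNA lay inside 30 of 87 (34.5%), 59 snoRNAs in all, against 372 of 21883 genes (1.70%). Rpl4 hosted 5, and Rpl7a and Rpl13a hosted 4 each.

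The lists held 41490 wild-type, 31365 heterozygous and 34298 homozygous peaks over 25.1, 17.5 and 20.2 Mb. The depth in reads is unknown here, and the lowest background recovered from the authors' fold and p at any peak of a list was 2.17, 1.73 and 1.73 reads per position. This lowest value in wild type was 1.25 times the heterozygous one, so depth and genotype cannot be told apart in counts against wild type. Of 10 beta cell markers, 9, 8 and 9 had a peak within 1 kb of a gene end, Ins1 and Ins2 in every library. Slc2a2 had none in wild type and the homozygous library, and Chga and Pdx1 had none in the heterozygous one. Of the 19 markers of alpha, delta, acinar, duct, mesenchymal, immune and endothelial cells, peaks lay at Cela1 and Cd79a in the heterozygous and at Gcg in the homozygous library.

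Nearly all ribosomal protein genes carried H3K27ac in every clone. A peak of at least 1 bp within 1 kb of a gene end, called a gene-end peak here, was present in all 3 libraries at 78 of 87 genes (89.7%), while the same held for 45.8% of all protein-coding genes. This was so for 44 of 46 large-subunit genes, 30 of 31 small-subunit genes and 4 of the 10 further copies. By library, 80 genes had such a peak in wild type and 78 in each knockout.

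The subunit genes that missed this count were Rpl17 and Rpl19, whose proteins lie near the exit tunnel of the large subunit, and Rps2, a small-subunit protein near the mRNA entry channel. Each carried peaks deeper inside the annotated gene, which for Rps2 (chr17:24718121-24721927) begins well before the RefSeq start site at 24720063. Around that start site the wild-type library had peaks at 24719360 to 24719886 and 24720110 to 24720595, the heterozygous at 24719343 to 24719886 and 24720164 to 24720534, and the homozygous at 24719316 to 24719878 and 24720122 to 24720894. Rps2 was thus flanked by acetylation on both sides of its start in all 3 clones. At Rpl19 the internal peak ran from 98026233 to 98027619 on chromosome 11 in wild type, with a fold enrichment over local background, the authors' own value within a list, of 8.09. Its counterparts had folds of 9.76 in the heterozygous and 9.03 in the homozygous list. At Rpl17 the internal peak had folds of 10.1, 9.61 and 11.8 in the wild-type, heterozygous and homozygous lists.

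With the whole gene and 1 kb on either side, a measure chosen after seeing the data, all 77 subunit genes and 5 of the 10 further copies had a peak in all 3 libraries (82 of 87, against 52.4% of all genes). Within 1 kb of a RefSeq start site, also chosen after seeing the data, this was so for 61 of 67 genes (all 57 of the subunit genes with an entry), against 48.3% of all genes. No peak near an end was listed in any library for Rpl10l and Rpl39l, copies of Rpl10 and Rpl39 known for expression in the testis, or for Rps23rg1, Rpl37rt and Rps27l. Rps27l, a p53 target, did hold internal peaks, with folds of 12.7, 12.1 and 13.4 in the wild-type, heterozygous and homozygous lists. Rpl37rt held 1 internal peak in the homozygous list only, with a fold of 8.15. In contrast, Rpl7l1, Rpl22l1, Rpl36al and Rpl3l, the last known as the striated-muscle counterpart of Rpl3, had gene-end peaks in all 3 libraries. Rpl3l shared a window with an end of the gene Msrb1, Rpl36al with Mgat2 and Rpl7l1 with 2310039H08Rik, and a peak in a shared window cannot be assigned to either gene. All gene-end peaks of Rpl3l lay at its far end, and in no library did a peak lie within 1 kb of its RefSeq start sites.

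The acetylated stretches at these genes were slightly broader, by their medians, than those at all genes, a trait shared with some other groups of protein synthesis genes given below. Covered bases, the bases of the gene-end windows that lay under a peak, were counted in windows of 4002 bases for most genes, down to 2592 for the shortest. They had medians of 1172.5, 1078 and 1107 in wild type, heterozygous and homozygous cells, against 1013, 894 and 961 for all genes with such a peak. In wild type they ranged from 150 to 2227, in heterozygous cells from 130 to 1769 and in homozygous cells from 93 to 1940. The widest peak of a gene had medians of 844.5, 757.5 and 877.5 bp, in the same order, against 829, 712.5 and 788 bp for all genes. By fold, the strongest peak of a ribosomal protein gene stood at a median percentile of 84.5, 83.7 and 84.9 within its own list, against 83.5, 80.8 and 81.2 over all genes. At least 2 gene-end peaks were listed for 44 of 80 genes (55.0%) in wild type, 40 of 78 (51.3%) in heterozygous and 35 of 78 (44.9%) in homozygous cells. Over all genes these shares were 46.4%, 44.4% and 46.7%.

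**Figure D1:**
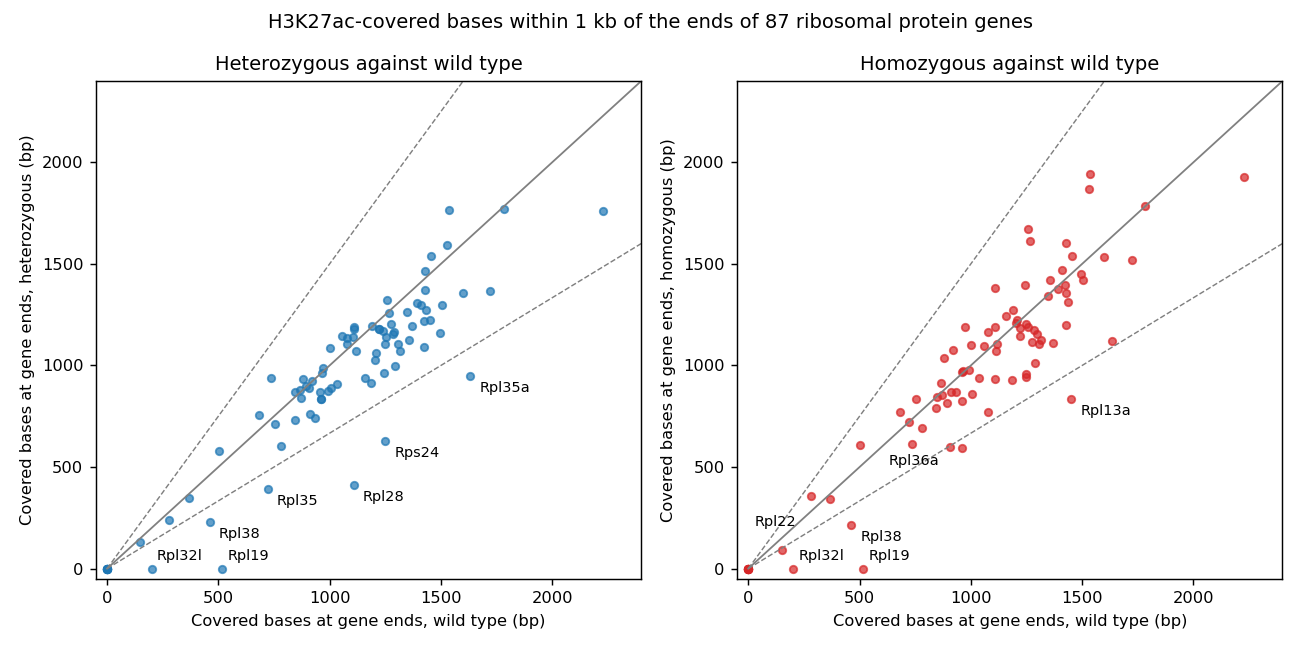
Covered bases within 1 kb of the gene ends (bp) for each ribosomal protein gene, in the wild-type library on the horizontal axis and a knockout library on the vertical axis. Solid lines mark equality and dashed lines a 1.5-fold difference, and besides Rpl19 and Rpl32l, at 0 in both knockouts, 5 genes lie below the lower dashed line in each knockout library and 0 above the upper one.

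The widest single peaks in wild type were at Rpl10a (1852 bp), Rpl7 (1817 bp), Rpl39 (1722 bp), Rpl35a (1632 bp) and Rpl4 (1584 bp). Rpl4 and Rpl39 encode proteins that line the exit tunnel of the large subunit. The widest peak of Rpl10a measured 1880 bp in the heterozygous and 1261 bp in the homozygous library, that of Rpl7 1359 and 1536 bp, and that of Rpl39 1366 and 1520 bp. For Rpl4 these values were 1439 and 1645 bp. Rpl4 also had the most covered bases of any ribosomal protein gene in wild type, 2227, with 1758 in heterozygous and 1928 in homozygous cells. Its windows reach the ends of Snapc5 and Zwilch, and those of Rpl10a an end of Tead3.

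The narrowest widest peaks in wild type were those of Rpl32l (200 bp), Rpl18 (280 bp), Rpl23a (366 bp), Rpl22 (370 bp) and Rpl12 (478 bp). Rpl23a, which helps to dock the signal recognition particle at the tunnel exit, had peaks of 349 and 345 bp in the heterozygous and homozygous libraries. Rpl22, whose loss is known to disturb T cell development, had 368 and 279 bp. Rpl12, at the base of the stalk, had 575 and 611 bp. The gene-end peak of Rpl22 lay at the edge of a window, and a wider peak lay deeper inside the gene. That internal peak measured 673, 620 and 701 bp in the wild-type, heterozygous and homozygous lists, with folds of 8.76, 10.1 and 10.9. At Rpl18 the gene-end peak lay outside the annotated gene, whose windows reach an end of Fam83e. The peaks around its start site lay inside the gene, at 45717387 to 45718847 on chromosome 7 in wild type. The other libraries had a pair of peaks there, at 45717541 to 45717998 and 45718095 to 45718820 in the heterozygous and at 45717466 to 45717976 and 45718079 to 45718907 in the homozygous list. A single wild-type block at the start of Rpl18 was therefore listed as separate flanks in both knockout clones.

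In the heterozygous library, 55 of the 78 ribosomal protein genes with a gene-end peak in both had fewer covered bases than in wild type, 22 had more and 1 had the same number. The median log2 ratio was -0.14 (SD over genes 0.28, n = 78 genes), against -0.18 (SD 0.48) for all genes, of which 79.1% had fewer. At least 1.5-fold fewer bases were covered at 5 of 78 genes (6.41%) and at least 1.5-fold more at 0, while 16.0% and 1.98% of all genes passed the same folds. The share with a loss of this size was thus below the background, and the median lay close to that of all genes. A gene-end peak in wild type and none in the heterozygous library was found for 2 genes, Rpl19 and Rpl32l (8.77% of all genes with a wild-type peak), and the reverse for 0 (2.51% of all genes with a heterozygous peak). The wild-type peak of Rpl19 measured 517 bp with a fold of 2.79, at the annotated end that lies before the RefSeq start site, and that of Rpl32l 200 bp with a fold of 4.65.

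In the homozygous library, 49 of 78 genes had fewer covered bases than in wild type and 29 had more. The median log2 ratio was -0.05 (SD 0.27, n = 78 genes) against -0.07 (SD 0.47) for all genes. At least 1.5-fold fewer were covered at 5 genes (6.41%, background 10.2%) and at least 1.5-fold more at 0 (background 3.27%). Rpl19 and Rpl32l again had a gene-end peak in wild type only (background 8.43%), and 0 genes had one in the homozygous library and none in wild type (background 2.87%). Both comparisons use the same wild-type library.

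Between the knockout libraries, 54 of 78 genes had more covered bases in the homozygous library and 24 had fewer. The median log2 ratio of homozygous over heterozygous was 0.07 (SD 0.32, n = 78 genes) against 0.10 (SD 0.49) for all genes. At least 1.5-fold more were covered at 4 genes (5.13%, background 11.0%) and at least 1.5-fold fewer at 1 (1.28%, background 4.09%). A gene-end peak in the heterozygous library and none in the homozygous one was found for 0 genes (background 5.19%), and the reverse also for 0 (background 5.89%). The median strongest peak of a ribosomal protein gene had a recovered pile-up of 122.5 reads in wild type, 97.5 in heterozygous and 153 in homozygous cells, and the part of this order in the covered bases was not tested.

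**Figure D2:**
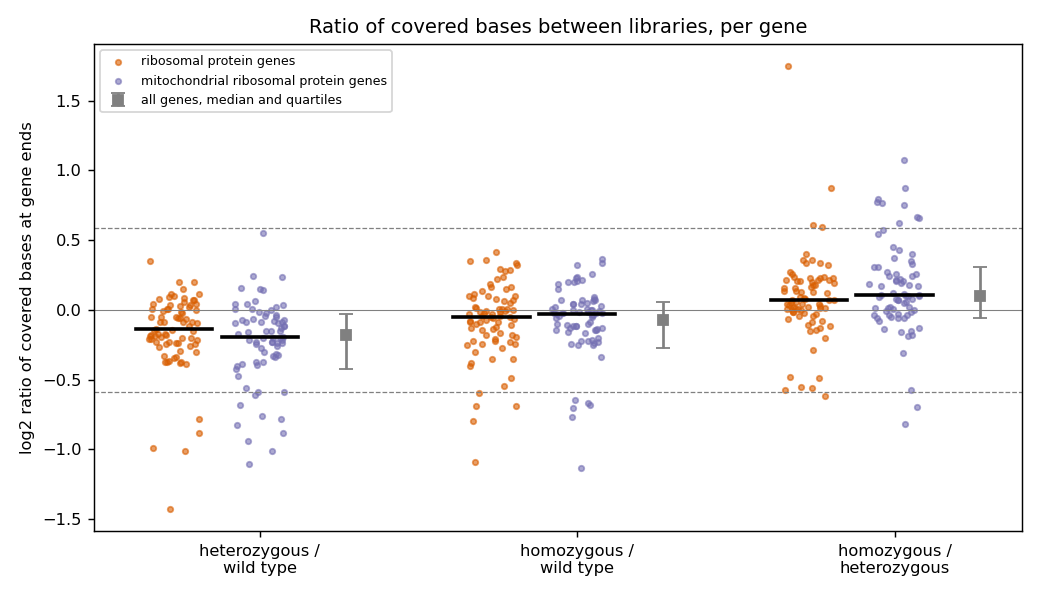
Log2 ratio of covered bases for each ribosomal protein gene (orange points) and mitochondrial ribosomal protein gene (purple points) in the 3 comparisons, with medians as black bars, and the median and quartiles of all protein-coding genes in grey. Dashed lines mark 1.5-fold, and the ribosomal protein medians of -0.14, -0.05 and 0.07 lie near the -0.18, -0.07 and 0.10 of all genes.

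Rpl28, a large-subunit protein gene at chr7:4792965-4794547, had the largest differences. Covered bases in its windows numbered 1109 in wild type, 412 in heterozygous and 1383 in homozygous cells, so the heterozygous clone was low and the other clones were within 1.5-fold of each other. Wild type was 2.69-fold and the homozygous library 3.36-fold above the heterozygous one (log2 -1.43 and 1.75 in the 2 comparisons with it). The wild-type peaks ran from 4792430 to 4792731 (fold 4.04), before the start site, and from 4792951 to 4793757 (fold 8.24), from the start into the gene. The heterozygous list kept 1 peak, 4793004 to 4793415 (fold 4.93), and the homozygous list had 4792969 to 4793983 (fold 5.00) and a further one near the far end at 4794429 to 4794796 (fold 2.89). The upstream peak, which lies over the bases before those printed above, was thus listed in wild type only, and a peak that begins near the pyrimidine tract was listed in all 3 libraries.

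Rpl35, a protein of the tunnel exit, had 721, 392 and 720 covered bases in wild type, the heterozygous and the homozygous library, and the wild-type value was 1.84 times the heterozygous one. Its upstream wild-type peak, chr2:39005325-39005539 (fold 2.72), had no counterpart in either knockout list, while the peak inside the gene was widest in the homozygous one. The windows of Rpl35 reach an end of Wdr38. Rps24, needed to mature the small-subunit RNA and mutated in Diamond-Blackfan anaemia, an inherited failure of red cell production, had 1250, 629 and 959. The peak that wild type alone listed there, chr14:24496138-24496627 (fold 3.05), lay at the far end of the gene, and the start-site peak measured 760, 629 and 1027 bp. Rpl35a, likewise a Diamond-Blackfan gene, had 1632, 950 and 1118 in a single peak that was 1.72 times as wide in wild type as in the heterozygous library, and its windows reach an end of Iqcg. Without genes that share a window, 3 decreases of at least 1.5-fold were left in the heterozygous library, those of Rpl28, Rpl38 and Rps24.

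At Rpl38, known for its role in the translation of Hox mRNAs, the windows held 463, 230 and 217 bases, and wild type was 2.01-fold and 2.13-fold above the heterozygous and homozygous libraries. Its main peak lay mostly inside the gene and beyond the windows, at chr11:114668617-114669871 in wild type, and measured 1255, 1165 and 1236 bp with folds of 9.82, 9.80 and 11.4. The upstream wild-type peak, chr11:114668173-114668433 (fold 3.47), ended before the promoter stretch printed above and had no counterpart in either knockout. In windows at the start site the log2 ratios were -0.30 and -0.32, less than 1.5-fold, and with only peaks of −log10 q of at least 20 they were 0.19 and 0.10, in the other direction. The lower count at Rpl38 therefore rested on the narrow upstream peak and on where the annotated gene begins.

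Rpl13a, a protein also known for silencing inflammatory mRNAs, had 1452, 1224 and 836 covered bases. The homozygous list lacked a narrow peak beyond the far end of the gene and the upstream peak, chr7:45129099-45129621 in wild type (fold 4.73), and 1 peak of 836 bp that ended near the start site was left. Rpl36a, whose annotated neighbour is Gla, had 906, 891 and 600, and its upstream peak, chrX:134585249-134585472 in wild type (fold 4.89) and similarly placed in the heterozygous list, was not listed in the homozygous library. The peak downstream of the Rpl36a start was listed in all 3, at 682, 683 and 600 bp. Rpl22 had 150, 130 and 93 bases at the edge of a window, and over the whole gene its log2 ratio of homozygous over wild type was -0.09.

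Between the knockouts, Rpl12 had 938 covered bases in heterozygous and 611 in homozygous cells (737 in wild type), with an upstream peak, chr2:32961279-32961641 in the heterozygous list, that the homozygous list lacked, in windows that reach an end of Lrsam1. Its main peak was wider in the homozygous library, as given above. Rpl18 had 238 and 359 (280 in wild type), at the end shared with Fam83e. In all 10 decreases of at least 1.5-fold against wild type, the strongest wild-type gene-end peak had a counterpart in the knockout list. In 8 of the 10 a further, weaker peak had none. In lists cut to the 31365 peaks of lowest q each, Rpl28, Rpl35a and Rpl38 passed 1.5-fold in the heterozygous library, and Rpl35 and Rps24 did not, with log2 ratios of -0.37 and -0.27. In the homozygous library Rpl22 and Rpl38 passed, and Rpl13a and Rpl36a did not, at -0.44 and -0.18.

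**Figure D3:**
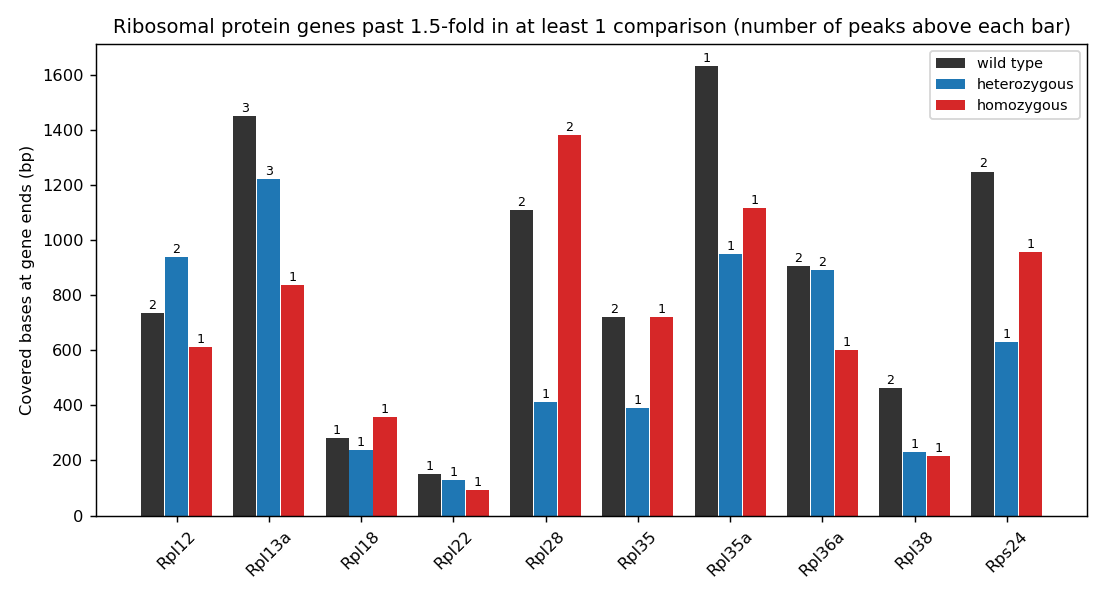
Covered bases within 1 kb of the gene ends (bp) in the 3 libraries for the genes described in the text with a difference of at least 1.5-fold in any comparison, with the number of gene-end peaks above each bar. Rpl28 stands at 412 in the heterozygous library beside 1109 and 1383, and most bars that are low also have fewer peaks.

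The peaks without a counterpart were narrow and weak in their own list. Of 129 wild-type gene-end peaks of ribosomal protein genes, 9 (6.98%) had no overlapping heterozygous peak, against 14.9% over all genes. Those 9 had a median width of 302 bp and a median fold of 3.36, beside 714 bp and 7.78 for the others. Of the same 129 peaks, 18 (13.95%) had no homozygous counterpart, against 13.6% over all genes, with a median width of 301.5 bp and a fold of 4.03. Their median −log10 q values were 12.1 and 14.2, and 1 of the 9 and 4 of the 18 lay above the list median of 19.0. The homozygous share was thus at the background and the heterozygous share below it.

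In the other direction, 0 of 121 heterozygous peaks (background 4.81%) and 3 of 116 homozygous peaks (2.59%, background 6.13%) had no wild-type counterpart. The 3 were at Rpl28, Rpl30 and Rpl36. Between the knockouts, 9 of 121 heterozygous peaks (7.44%, background 8.76%) had no homozygous counterpart, and the same 3 of 116 homozygous peaks (2.59%, background 11.3%) had no heterozygous one. Genes with a wild-type peak that was missing from the homozygous list included Rps10, Rps18 and Rps29 of the small subunit, Rps10 and Rps29 being known from Diamond-Blackfan anaemia, and Rpl26 of the large subunit. At Rps29 the peak was chr12:69159456-69159744 (fold 4.54), and its counterpart in the heterozygous list had a fold of 3.59.

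**Figure D4:**
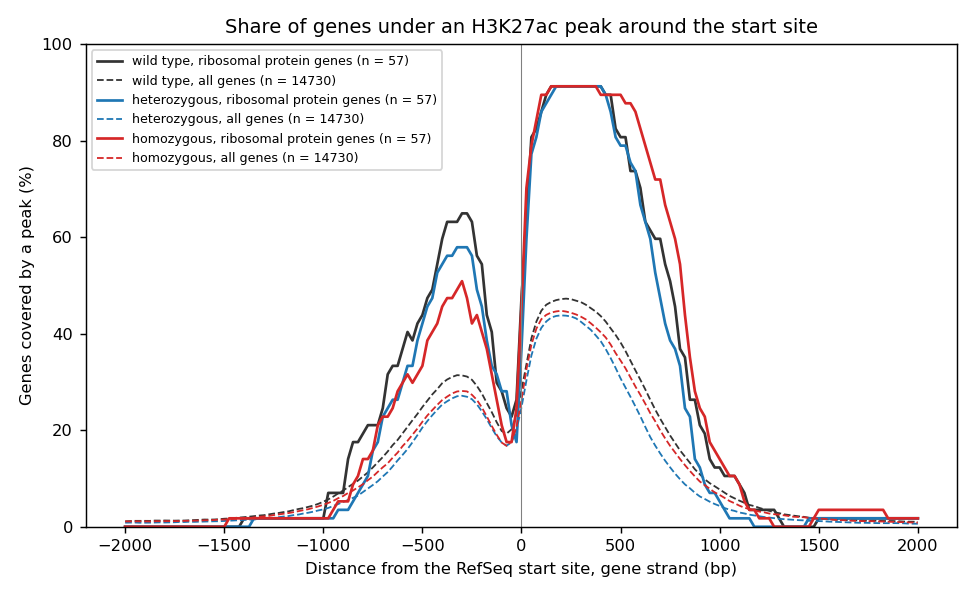
Share of genes (percent) with a peak at each distance from the start site (bp, negative upstream), for the 57 ribosomal protein genes with 1 RefSeq start site (solid) and all 14730 such genes (dashed), by library. The ribosomal protein curves reach 91.2% downstream of the start in each library, and fall to 64.9%, 57.9% and 50.9% at 300 bp upstream in wild type, the heterozygous and the homozygous library.

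For the 57 ribosomal protein genes with exactly 1 RefSeq start site, the acetylation lay mainly downstream of it. The share of genes under a peak reached 91.2% at 150 bp downstream in wild type, at 175 in heterozygous and at 150 in homozygous cells, against highest values of 47.3%, 43.8% and 44.7% for all genes. It dipped to 22.8%, 17.5% and 17.5% near the start site. At 300 bp upstream it was 64.9%, 57.9% and 50.9%, against 31.4%, 27.1% and 28.1% for all genes, and at 700 bp downstream 59.6%, 47.4% and 71.9%, against 22.4%, 15.2% and 19.97%. At these distances the homozygous profile was thus the lowest of the 3 upstream and the highest downstream, while over all genes the homozygous library lay between the other libraries at both points.

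More bases were covered downstream than upstream at 45 of 53 genes with a peak in wild type, 44 of 52 in heterozygous and 48 of 52 in homozygous cells. The median number of upstream bases covered was 394, 388 and 306.5, and of downstream bases 732, 687.5 and 801, against 404, 346 and 366 upstream and 641, 564 and 625 downstream over all genes. The median log2 ratios of homozygous over wild type were -0.19 upstream and 0.09 downstream, against -0.08 and -0.04 over all genes. Those of heterozygous over wild type were -0.11 and -0.02, against -0.15 and -0.16, and those of homozygous over heterozygous 0.03 and 0.15, against 0.06 and 0.10. These ratios leave out genes with no covered base on that side in 1 or both of the libraries.

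No upstream base was covered at 10 of 53 genes in wild type (18.9%), 13 of 52 in heterozygous (25%) and 15 of 52 in homozygous cells (28.8%), against 14.9%, 18.7% and 16.9% of all genes. Upstream coverage present in wild type was absent in the heterozygous library at 5 of 43 genes (11.6%, background 14.1%), namely Rpl6, Rpl28, Rpl35, Rpl38 and Rps3a1. At Rpl6 this was only the edge of a peak over the start, with 16, 0 and 10 upstream bases in the 3 libraries. It was absent in the homozygous library at 6 of 43 (13.95%, background 12.3%), namely Rpl26, Rpl28, Rpl35, Rpl36a, Rpl38 and Rps3a1. From the heterozygous to the homozygous library it was absent at 3 of 39 (7.69%, background 8.19%), namely Rpl26, Rpl36a and Rps15, the last with only 4 such bases in the heterozygous library. The shares of genes that lost all upstream coverage, to the last base, were thus near the background. These counts leave out Rpl12, Rpl13a and Rps10, whose upstream peak was not listed in the homozygous library. There the edge of a peak over the start left 17, 5 and 4 upstream bases, beside 267, 523 and 469 in wild type. The background was counted by the same rule. The summit of the strongest peak lay downstream of the start at 42 of 53, 41 of 52 and 46 of 52 genes (79.2%, 78.8% and 88.5%), against 71.8%, 70.5% and 71.9% over all genes.

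Grouped by subunit, the median log2 ratio of heterozygous over wild type was -0.18 for 44 large-subunit genes (4 at least 1.5-fold fewer) and -0.13 for 30 small-subunit genes (1 at least 1.5-fold fewer), where 16.0% of all genes passed that fold. For homozygous over wild type it was -0.04 (4 fewer) and -0.08 (1 fewer), where 10.2% of all genes passed, and for homozygous over heterozygous 0.08 and 0.02. The proteins of the stalk genes recruit the translation factors that hydrolyse GTP. Rplp0 had 503, 579 and 609 covered bases in wild type, the heterozygous and the homozygous library, Rplp1 had 1276, 1204 and 1114, and Rplp2 had 866, 881 and 914. These numbers lay within 1.5-fold of each other for each gene, but at Rplp1 the width of single peaks did not. Its 1 peak of 1276 bp in wild type and 1204 bp in the heterozygous list was listed in the homozygous library as separate peaks of 580 and 534 bp, a log2 ratio of the widest peak of -1.14 against wild type.

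Rpl5 and Rpl11, which bind Mdm2 together with the 5S ribosomal RNA when ribosome assembly fails and so stabilise p53, had 965, 965 and 975 and 991, 875 and 979 covered bases. Of all ribosomal protein genes, Rpl5 was the one with equal numbers in wild type and the heterozygous library. Rps6, the substrate of the S6 kinases, had 1506, 1297 and 1421. Rps19, the gene most often mutated in Diamond-Blackfan anaemia, had 1370, 1196 and 1109, lowest in the homozygous library. Rps27a, which encodes a fusion of ubiquitin with a small-subunit protein, had 1355, 1126 and 1421. Rps3, at the mRNA entry channel, had 959, 870 and 823, and Rpsa, also known as a laminin receptor precursor, had 1001, 1084 and 1099. None of these reached a 1.5-fold difference. All 19 Diamond-Blackfan genes on the list used had gene-end peaks in all 3 libraries, with medians of -0.20, -0.05 and 0.03 in the 3 comparisons in the same order, and 3 of them had at least 1.5-fold fewer bases in the heterozygous library than in wild type, a share near the 16.0% of all genes.

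The largest increases stayed below 1.5-fold against wild type. Rpl41, which encodes a very small protein at the interface of the subunits, had 1256 covered bases in wild type, 1322 in heterozygous and 1672 in homozygous cells. Rpl10, which joins the large subunit late in its assembly, had 1266, 1256 and 1611, and Rps12 had 972, 986 and 1191. The homozygous library was the highest at all 3 genes, but they were picked for an increase in it over wild type. Windows of Rpl41 reach an end of Zc3h10, and those of Rpl10 an end of Dnase1l1. Within 1 kb of its start site, Rpl41 had 682, 690 and 918 covered bases in the same order of libraries. Rpl15, a Diamond-Blackfan gene, had 1423, 1090 and 1394, lowest in the heterozygous library, in windows that reach an end of Nkiras1. Rps27 had 681, 755 and 773, in windows that reach ends of Nup210l and Rab13. Rpl26 went the other way, with 1078, 1134 and 769. Among the further copies, Rpl7l1 had 1537, 1766 and 1940, Rpl22l1 755, 712 and 836, Rpl36al 1455, 1541 and 1540, and Rpl3l 780, 602 and 690.

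Of the 87 genes, 32 had a window that reached an end of another protein-coding gene, among them also Rpl5, Rpl23a, Rplp2, Rps18 and Rps27a. Their median log2 ratios were -0.06, 0.00 and 0.10 for heterozygous over wild type, homozygous over wild type and homozygous over heterozygous, and those of the genes that shared no window were -0.17, -0.09 and 0.06.

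Other genes of protein synthesis were acetylated in similar shares. Gene-end peaks in all 3 libraries were found for 74 of 78 mitochondrial ribosomal protein genes, 19 of 19 elongation factors and other genes with a pyrimidine-tract mRNA, 24 of 24 initiation factors, 33 of 34 ribosome biogenesis factors and 10 of 11 genes of RNA polymerase I or its transcription factors. Of these 11, the gene of the transcription factor Ubtf had no gene-end peak in any library. In wild type, median covered bases were 912.5, 1262, 1232, 1196 and 904.5 in the order of these lists, beside 1172.5 for the ribosomal protein genes. The median fold percentiles of the strongest peaks were 94.4, 86.1, 88.0, 90.1 and 94.5 in wild type, beside 84.5. In the homozygous library these percentiles were 90.2, 78.9, 82.1, 84.7 and 92.3, beside 84.9. In the heterozygous library, at least 1.5-fold fewer bases than in wild type were covered at 11 of 74 mitochondrial ribosomal protein genes, near the 16.0% of all genes, among them Mrps15 with 922, 428 and 575 in the 3 libraries. The same held for 1 of 19 elongation and tract genes, 0 of 24 initiation factors, 5 of 33 biogenesis factors, also near 16.0%, and 0 of 10 genes of RNA polymerase I or its transcription factors. The elongation gene was Eef2, which encodes the translocase of the elongating ribosome, with 1750, 1020 and 1671. Their median log2 ratios of heterozygous over wild type were -0.20, -0.17, -0.06, -0.19 and -0.02 in the order of the lists above, beside -0.14 for the ribosomal protein genes. In the homozygous library at least 1.5-fold fewer were covered at 6 of 74, 0 of 19, 0 of 24, 3 of 33 and 2 of 10, against 10.2% of all genes, with medians of -0.03, -0.09, -0.01, -0.03 and -0.02. Heatr1, a factor in the maturation of the small-subunit RNA, had 565, 224 and 254. Polr1b, the second-largest subunit of RNA polymerase I, had 212, 515 and 18, but these count only what lay inside the windows, and its widest peak measured 558, 573 and 603 bp.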

How the data were processed

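H3K27ac ChIP-seq was read from 3 MIN6 libraries, 1 per genotype, sequenced as single-end reads of 75 bp per the labels' protocols. Per the submitters' processing notes, the authors used bcl2fastq and MACS2 on mm10, and the peak lists are separate for each library. Not given in the sources used here are their versions, the aligner, the control and the calling threshold. The deposited lists give each peak's score, its fold enrichment over local background (a ratio), −log10 p, −log10 q and summit offset. Fold and q depend on the library and served only within a list. The score was not used. Pile-ups and backgrounds were solved from the deposited fold and −log10 p (tolerance 0.001), assuming a Poisson p and a pseudocount of 1 in the fold.

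Gene ends came from RefSeq on GRCm38.p6, the assembly of mm10. Exons were not used here. Windows reached 1 kb to either side of both ends, an overlap of 1 bp counted, and covered bases were compared as log2 ratios where both libraries had a peak, with 1.5-fold as the threshold. Genes lacking a peak in 1 library were counted apart. The same measures over all protein-coding genes are the background percentages. With 1 library per genotype no test was run, and differences between clones cannot be told apart from differences between genotypes.

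The genes named were those with no gene-end peak in at least 1 library, the 6 largest decreases and 6 largest increases in each of 3 comparisons, the 5 widest and 5 narrowest in wild type, and a fixed list of known genes and paralogs. Genes of peaks without a counterpart, snoRNA hosts, genes with a motif, and Eef2, Mrps15, Heatr1 and Polr1b were named after their values were seen. Some genes that the rule takes are counted but not reported here by name. Members, lists and motifs were chosen with earlier results of these data known. The alternatives were 8 planned settings (windows, list length, q, overlap, summit, gene end and fold) and 4 added after seeing the data. Python 3.11.15 with numpy 2.4.6, pandas 2.3.3, scipy 1.17.1 and matplotlib 3.10.9 was used. Covered bases were checked against bedtools 2.31.1 in 6000 values, of which 0 differed, and tested on simulated data.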

Additional observations from a re-analysis of the deposited data

How the results depend on the processing

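Of the values for the whole gene set, 92 stayed the same under the alternatives, to within 0.1 for a log2 median and 1.5 times for a count, and 24 moved. That tolerance of 0.1 is larger in size than the homozygous medians of -0.05 against wild type and 0.07 against heterozygous. Staying the same therefore says little about those medians. The 3 medians did not change sign and lay between -0.17 and -0.01 for heterozygous against wild type, -0.09 and -0.02 for homozygous against wild type, and 0 and 0.09 for homozygous against heterozygous. With windows of 500 bp, the first was -0.011, with 3 genes at least 1.5-fold fewer. Homozygous against wild type then had 1 gene more, and homozygous against heterozygous 5 fewer and 2 more. With windows of 2 kb the decreases against wild type were 8 in heterozygous and 3 in homozygous cells. With lists of equal length they were 3 and 3. Requiring the summit in the window, or using the 5′ end only, left 3 decreases in the homozygous library, and start-site windows left 2. At a 2-fold threshold there were 2 and 1 decreases against wild type, and 0 decreases and 1 increase between the knockouts. With a −log10 q of at least 20, increases against wild type were 4 in heterozygous and 3 in homozygous cells, decreases in the homozygous library were 3, and decreases between the knockouts were 2. There Rpl38 reversed to 0.19 and 0.10. Without genes that share a window, 48 of 55 had a peak in all 3 libraries, heterozygous decreases were 3, and between the knockouts there were 0 decreases and 2 increases. The cause of these shifts was not tested beyond what each setting leaves out. Among single genes, 113 values kept their side of the threshold, 31 fell below it and 2 reversed. A setting that left out a gene, or left it without a peak in both libraries, gave no value and is not in these counts. Rpl22 thus had 7 values, where Rpl28 had 11 in each of its comparisons. No paired analysis was possible because each genotype had 1 library. Depth limits narrow, weak peaks most, and a peak that is not listed was not detectable at the authors' threshold, which does not show that acetylation was absent.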

Other observations

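Ribosomal protein genes have left many processed pseudogenes, intronless copies scattered over the genome that mostly lack a promoter. The gene table held 324 of them. A peak touched 2 in wild type, 0 in heterozygous and 6 in homozygous cells, and 0 in all 3 libraries. No background share was taken for these counts, so they are not read as a difference between genotypes.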
